A study of Mus musculus with 11 samples.

Results

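The CpGs described here were read in 2 libraries that were made with antibodies against different histone marks. They lie on chromosomes 1 to 19 and had 5 or more methylation calls both in the H3K27me3 library from 250000 cells and in run 2 of the H3K4me1 library. This rule found 88905 CpGs of the 21908008 in the deposited table, or 0.436% of the CpGs on those chromosomes. They made up 7.37% of the 1206474 CpGs with 5 or more calls in the H3K27me3 library and 15.8% of the 563737 such CpGs in the H3K4me1 library. The rule used call numbers only, so methylation levels played no part in the choice.

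The study applied CUT&Tag-BS to mouse E14 embryonic stem cells, a line of 129/Ola background that was kept undifferentiated in serum with leukemia inhibitory factor. In this assay an antibody to a histone mark brings a transposase to chromatin, the enzyme cuts out nearby DNA and attaches methylated adapters, and the fragments are bisulfite converted before sequencing. Bisulfite leaves methylated cytosines as they are and converts the rest, so a call at a CpG states whether that DNA molecule was methylated there. The series held 11 samples, of which 8 were bisulfite libraries for 3 marks. The groups used most are an anti-H3K27me3 library and an anti-H3K4me1 library, each from 250000 cells without any treatment or genetic change, and each is 1 library. Further values come from H3K27me3 libraries of 100000 and 20000 cells, from run 1 of H3K4me1 and from run 2 of H3K9me3. The 2 H3K4me1 runs differed in read length, 35 bp in run 1 and 75 bp in run 2, and the labels do not say that they were separate libraries.

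H3K27me3 is laid down by Polycomb repressive complex 2, and in embryonic stem cells it covers CpG islands of silent developmental genes. H3K4me1 marks enhancers and the flanks of promoters, and poised enhancers can carry both marks. DNA methylation is low at CpG islands and high over most of the remaining genome. Where both marks are pulled down from the same place, each library reads methylation only on the molecules its antibody captured, so the comparison asks whether the 2 sets of molecules carry the same methylation at the same CpG.

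Before the values, 5 promoters show what the shared CpGs look like in sequence. Each line gives the 250 bases before a transcription start site, 5′ to 3′ on the gene's strand, from RefSeq promoters of build GRCm38.p6. CG in capitals marks a CpG of the shared set. Efna3 (ephrin A3, a membrane ligand of Eph receptors; chr3:89321769-89322018, minus strand) held the most shared CpGs among the 538 such windows with 25 or more calls in each library. Gm52678 (chr4:120269520-120269769, plus strand) and Mmp23 (a matrix metalloproteinase; chr4:155653385-155653634, minus strand) had the largest differences with H3K4me1 higher. Epb41l1 (a cytoskeletal protein; chr2:156475284-156475533, plus strand) and Itga11 (an integrin subunit that binds collagen; chr9:62677605-62677854, plus strand) had the largest with H3K27me3 higher.
Efna3: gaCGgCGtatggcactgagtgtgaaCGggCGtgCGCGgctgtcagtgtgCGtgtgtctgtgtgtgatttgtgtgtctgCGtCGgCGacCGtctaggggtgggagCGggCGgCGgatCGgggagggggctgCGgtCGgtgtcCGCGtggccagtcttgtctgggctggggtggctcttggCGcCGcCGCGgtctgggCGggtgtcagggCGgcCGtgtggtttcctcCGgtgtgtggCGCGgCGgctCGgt
Gm52678: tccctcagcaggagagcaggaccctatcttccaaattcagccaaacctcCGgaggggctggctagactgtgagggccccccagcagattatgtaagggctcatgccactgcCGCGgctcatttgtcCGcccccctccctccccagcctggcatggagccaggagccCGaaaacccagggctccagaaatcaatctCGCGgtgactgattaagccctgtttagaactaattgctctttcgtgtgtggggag
Mmp23: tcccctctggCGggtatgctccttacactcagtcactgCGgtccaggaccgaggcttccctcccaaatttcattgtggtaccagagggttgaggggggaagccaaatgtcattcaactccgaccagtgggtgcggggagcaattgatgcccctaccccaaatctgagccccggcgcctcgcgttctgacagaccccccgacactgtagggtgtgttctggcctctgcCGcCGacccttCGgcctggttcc
Epb41l1: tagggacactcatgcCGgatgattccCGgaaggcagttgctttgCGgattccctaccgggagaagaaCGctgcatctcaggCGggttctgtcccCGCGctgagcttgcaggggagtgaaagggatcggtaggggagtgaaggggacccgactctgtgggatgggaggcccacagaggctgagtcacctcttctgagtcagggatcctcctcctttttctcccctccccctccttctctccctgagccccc
Itga11: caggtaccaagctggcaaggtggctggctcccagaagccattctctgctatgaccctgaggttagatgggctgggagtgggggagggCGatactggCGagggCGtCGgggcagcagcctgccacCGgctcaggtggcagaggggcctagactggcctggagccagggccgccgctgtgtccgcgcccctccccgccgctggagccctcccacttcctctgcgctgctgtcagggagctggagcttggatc

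In the Efna3 window all 31 CpGs were shared. There 1.92% of 1510 H3K27me3 calls and 5.03% of 298 H3K4me1 calls were methylated. The Gm52678 window is poorer in CpGs, with 7 shared among 8, and its levels were 21.2% of 193 H3K27me3 calls and 53.2% of 47 H3K4me1 calls. At Mmp23, 5 of 13 CpGs were shared, and the levels were 5.94% of 101 calls against 26.7% of 30. Epb41l1 went the other way with 7 of 10 CpGs shared, at 19.4% of 129 H3K27me3 calls against 5.13% of 39 H3K4me1 calls. Itga11 had 24.8% of 258 against 11.1% of 27 over 5 of 12 CpGs. These 4 windows were chosen for their differences, which are therefore a description. The CpG-dense window of Efna3 was almost free of methylation in both libraries, and the 4 windows with wider gaps held fewer CpGs.

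The libraries differed in depth. The table held 37177077 calls for H3K27me3 and 9690770 for H3K4me1, and at the shared CpGs there were 3357457 and 730483. The median shared CpG had 24 H3K27me3 calls and 7 H3K4me1 calls. At 5 calls the level of a CpG moves in steps of 20 percentage points. A level is given below in 2 ways: over calls, where each call counts equally, and as the mean of CpG levels, where each CpG counts equally. Differences are H3K27me3 minus H3K4me1, in percentage points.

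At CpGs inside peaks of both marks, methylation was low in both libraries and slightly lower in H3K27me3. This class held 75963 CpGs, 85.4% of all shared CpGs. The mean CpG level was 12.2% in H3K27me3 and 13.9% in H3K4me1, a difference of -1.68 points. The difference was negative on 18 of 19 chromosomes, and its SD over chromosomes was 0.724. Over calls the gap was wider, with 8.02% against 13.6% and a difference of -5.58 points. H3K27me3 calls were most numerous at CpGs with little methylation, and a level over calls gives those CpGs more weight. The compared pair is 1 library of each mark, and the further libraries differ in cell number or read length, so no test across replicates was made, and chromosomes of 1 library are no replicates.

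CpGs inside only an H3K27me3 peak numbered 6167, or 6.94%. Their mean CpG level was 15.5% in H3K27me3 and 16.3% in H3K4me1, a difference of -0.813 points (SD over chromosomes 1.25). H3K27me3 was lower on 14 of 19 chromosomes. Over calls the levels were 10.2% and 16.3%, a difference of -6.03 points.

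CpGs inside only an H3K4me1 peak numbered 3781, or 4.25%, and here the class means lay closest. CpG by CpG the class was the most scattered, with 76.8% of CpGs less than 20 points apart, against 82.4 to 86.4% in the other 3 classes. It also had the fewest H3K27me3 calls, a mean of 6.46 per CpG against 28.8 to 42.9 in the others. Fewer calls make wider steps in the level, and the part of depth in this scatter was not tested. The mean CpG levels were 17.9% and 17.8%, with a difference of 0.148 points (SD over chromosomes 1.3). H3K27me3 was lower on 8 of 19 chromosomes, so no direction was shared. Over calls the levels were 16.7% (95% Wilson interval 16.2 to 17.2) and 15.0% (14.6 to 15.3). With the 2 libraries' own peak lists in place of the unified lists, that difference over calls turned from 1.73 to -1.16 points.

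The remaining 2994 CpGs, 3.37%, lay in no unified peak of either mark. Their mean CpG levels were 15.0% and 14.2%, a difference of 0.732 points (SD over chromosomes 2.8), with H3K27me3 lower on 8 of 19 chromosomes. Over calls the levels were 14.9% (14.6 to 15.1) against 11.1% (10.8 to 11.4). Of these CpGs, 743 (24.8%) also had 5 or more calls in H3K9me3 run 2, whereas the share was 0.0658% in the class with both peaks. Without those CpGs the difference was 0.0661 points as a mean over CpGs, and over calls it fell from 3.76 to 0.107 points. The largest run of CpGs of this class was 579 CpGs on chromosome 17 from 39843014 to 39848736, over Rn18s-rs5 and AY036118, which carry ribosomal RNA sequence. Their mean levels were 3.08% in H3K27me3, 1.34% in H3K4me1 and 2.88% in H3K9me3. A second stretch, on chromosome 2 from 98662264 to 98667310, held 44 CpGs at 84.9%, 76.9% and 87.0%, with a mean of 1495 H3K9me3 calls per CpG. Whether repeat copies that map to these places shaped their levels was not tested.

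**Figure D1:**
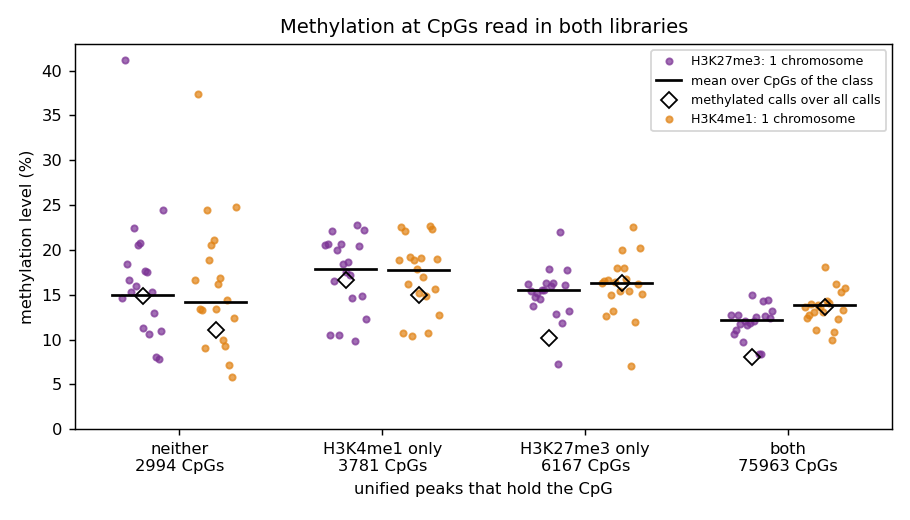
Methylation level in percent (y axis) of shared CpGs by the unified peaks that hold them (x axis). Each dot is the mean CpG level of 1 of 19 chromosomes in H3K27me3 (purple) or H3K4me1 (orange), lines are means over all CpGs of the class, and diamonds are methylated calls over all calls. In the class inside both peaks the lines stand at 12.2% and 13.9% while the diamonds stand at 8.02% and 13.6%.

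Most shared CpGs were lowly methylated in both libraries. Of the 88905, 64926 (73.0%) had a level of 20% or less in each, 8602 (9.68%) lay between 20 and 80% in each, and 1439 (1.62%) were at 80% or more in each. Levels less than 20 points apart were found at 84.5% of CpGs. Full opposites were rare: 117 CpGs had 20% or less in H3K27me3 and 80% or more in H3K4me1, and 93 had the reverse. H3K4me1 was at 0 in 57.5% of CpGs and H3K27me3 in 41.7%, and with fewer calls a low level is more often read as 0.

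**Figure D2:**
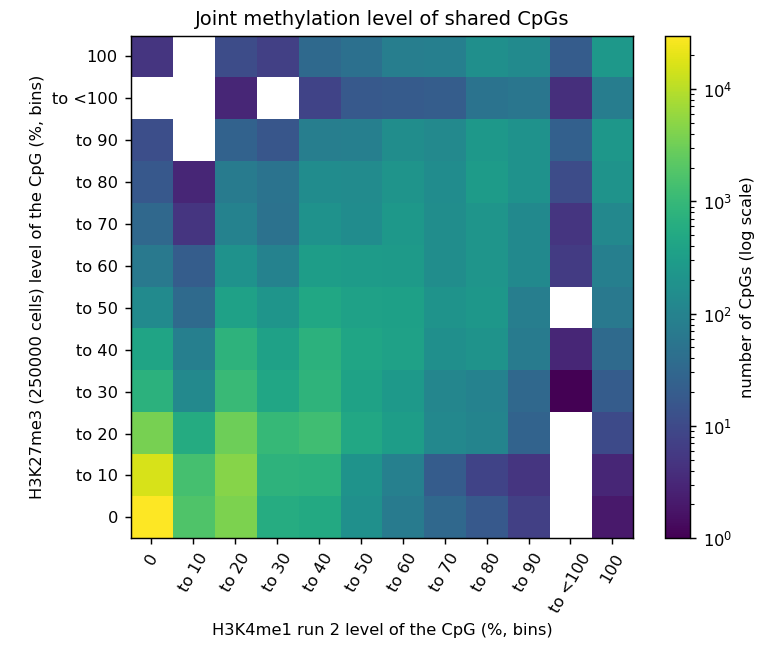
Number of shared CpGs (colour, log scale) by level in H3K4me1 run 2 (x axis) and in H3K27me3 from 250000 cells (y axis), both in percent, with CpGs at exactly 0 and exactly 100 in bins of their own. The counts pile up in the corner of low levels, where 73.0% of CpGs had 20% or less in each library, and the opposite corners hold 117 and 93 CpGs.

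A difference of 50 points or more was seen at 506 CpGs with H3K27me3 higher, 0.569% of the 88905 compared, and at 784 with H3K4me1 higher, 0.882%. The same measure between H3K27me3 from 250000 and from 100000 cells shows how often libraries of 1 mark part as far. Of 73151 shared CpGs with 5 or more calls in the smaller library too, 121 (0.165%) were lower and 147 (0.201%) were higher there by 50 points. The smaller library had more calls per CpG than H3K4me1, and depth also sets how often a CpG reaches 50 points. At the 2884 CpGs with equal calls in the 100000-cell library and H3K4me1 run 2, the shares were 0.728% and 0.555% within the mark against 1.11% and 1.21% between marks. At 4481 CpGs with equal calls in the 20000-cell library and H3K4me1 run 2, the 250000-cell library was higher in 0.179% within the mark and 0.0446% between marks, and lower in 0.469% and 0.759%. An excess between marks with H3K27me3 higher was thus seen in the first set only. Pearson's r of the level over the 73151 CpGs was 0.878 within H3K27me3 and 0.781 between marks. At equal calls it was 0.837 and 0.783 over the 2884 CpGs, and 0.764 and 0.755 over the 4481 CpGs. These values are a description of CpGs that share libraries and base composition.

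The mean difference was compared with the same-mark pair in the same way. Over the 73151 CpGs, H3K27me3 from 250000 cells exceeded the 100000-cell library by 0.0224 points on average, and its difference from H3K4me1 was -1.62 points. At the 2884 CpGs of equal calls, which had a higher level of 18.8% in the larger H3K27me3 library, these values were 0.185 and -0.105 points. In the set of 4481 CpGs matched through the 20000-cell library the level was 7.92%. There the difference within the mark was -0.0398 points and that between marks -1.9 points. The difference between marks was thus near that within the mark in the set of higher level and well past it in the set of low level. Over the 28438 CpGs with 5 or more calls in H3K4me1 run 1, the difference was -1.52 points to run 1 and -1.49 points to run 2.

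The gap changed sign along the methylation scale. CpGs were binned by their level in the 100000-cell H3K27me3 library, which took no part in the difference. At the 34687 CpGs with level 0 there, the means were 2.29% in H3K27me3 and 3.28% in H3K4me1, a difference of -0.993 points with H3K27me3 lower on 19 of 19 chromosomes. At 26080 CpGs above 0 and up to 20% the means were 7.51% and 10.2%, a difference of -2.68 points that was again negative on 19 chromosomes. Between 20 and 40% the difference was -3.49 points and between 40 and 60% it was -1.32. It was 1.73 points between 60 and 80%. At 1412 CpGs from 80 to 100% H3K27me3 was higher, with 80.6% against 75.4%, and was lower on only 1 of 19 chromosomes. Bins set on a library of H3K27me3 pull the means of that mark towards the bin more than those of H3K4me1 if the marks differ CpG by CpG, so the 2 ends are described and not tested.

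CpG density ordered the levels more strongly than the mark did. Density was counted as CpGs of the table within 250 bp of a shared CpG. From 1 to 4 such CpGs the mean levels were 37.3% in H3K27me3 and 35.9% in H3K4me1, and from 45 upward they were 1.94% and 2.35%. The difference was widest in the middle, at -2.79 points (SD over chromosomes 1.59) for 15 to 19 CpGs, with 15.9% against 18.6%. From 20 to 29 CpGs it was -2.06 points (SD 0.747) and from 30 to 44 it was -1.09 points (SD 0.391), each with H3K27me3 lower on 19 of 19 chromosomes. Among the 1231 sparsest CpGs it was 1.37 points with an SD of 3.81, larger than the value itself.

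Depth moved with density and with the gap. CpGs with 5 to 9 H3K27me3 calls differed by -0.526 points, and those with 80 or more by -2.38. Where H3K4me1 had at least as many calls as H3K27me3, at 17794 CpGs, the difference was -0.466 points with an SD over chromosomes of 1.21. Where H3K27me3 had 10 times the calls or more, at 16747 CpGs, it was -2.15 points with an SD of 0.749. A high H3K27me3 call number stands both for precision and for strong signal of the mark, and these cannot be told apart in 1 library.

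**Figure D3:**
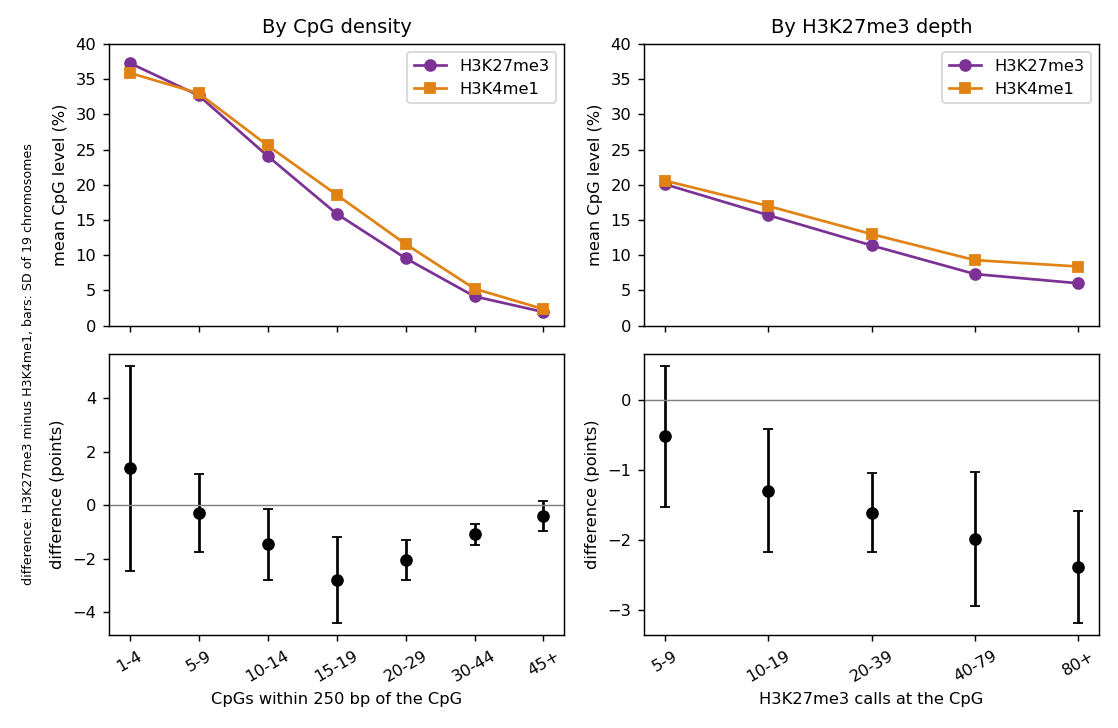
Upper panels: mean CpG level in percent of H3K27me3 (purple) and H3K4me1 (orange) by the number of CpGs within 250 bp (left) and by H3K27me3 calls at the CpG (right). Lower panels: the difference H3K27me3 minus H3K4me1 in percentage points, with bars for the SD over 19 chromosomes; it is widest at -2.79 points for 15 to 19 neighbouring CpGs and reaches -2.38 points at 80 or more calls.

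By position, 25672 shared CpGs (28.9%) lay within 1000 bp of a RefSeq start site, 45551 (51.2%) elsewhere in a gene and 14996 (16.9%) outside genes. The other 2686 lay on the chromosome for which the promoter table gave no start sites. Near start sites the mean levels were 7.79% in H3K27me3 and 8.89% in H3K4me1, a difference of -1.1 points (SD over chromosomes 0.49). In genes they were 14.7% and 16.6%, a difference of -1.81 points (SD 0.829). H3K27me3 was lower on 18 of 18 chromosomes in each. Outside genes the levels were 15.3% and 16.4%, with H3K27me3 lower on 16 of 18. Less than 200 bp from a start site the levels dropped to 4.74% and 5.53%. Levels thus varied more with position than between the libraries.

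CpGs read in both libraries were not typical of either. In H3K27me3 the mean CpG level was 12.8% at shared CpGs and 39.0% at the 1117569 CpGs that were not shared. In H3K4me1 it was 14.2% and 30%. Within only-H3K27me3 peaks, the 876773 CpGs without 5 H3K4me1 calls stood at 43.0%, against 15.5% for shared ones. In peaks of both marks the H3K27me3 levels were alike, 10.8% at the 172992 CpGs that were not shared and 12.2% at shared ones. H3K4me1 in those peaks had 25.1% at 20244 CpGs that were not shared and 13.9% at shared ones.

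Neighbours of strongly differing CpGs leaned the same way. The 506 CpGs with H3K27me3 higher by 50 points had 641 pairings with other shared CpGs within 200 bp, whose mean difference was 14.4 points in the same direction. For the 784 CpGs with H3K4me1 higher there were 1095 pairings with a mean of 12.1 points. Only 9.98% and 8.04% of the neighbours themselves reached 50 points in that direction. Neighbouring CpGs often lie on the same fragments, so they are no independent support. The discordant CpGs stood in sparser sequence, with a median of 12 and 15 CpGs within 250 bp, and 34.6% and 38.6% of them had exactly 5 H3K4me1 calls, against 29.5% of all shared CpGs.

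Per peak, the same small shift towards lower H3K27me3 methylation was seen. Of the 36588 unified H3K4me1 peaks on these chromosomes, 6261 held a shared CpG and 2469 had at least 5 shared CpGs and 50 calls in each library. Their median levels were 7.61% in H3K27me3 and 10.1% in H3K4me1, and the median difference was -1.45 points, with H3K27me3 lower in 1639 peaks (66.4%). Of 17634 unified H3K27me3 peaks, 4210 held a shared CpG and 2004 qualified. Their medians were 8.95% and 11.6%, the median difference was -1.61 points, and H3K27me3 was lower in 1350 (67.4%). With each CpG weighted equally, the median differences were -1.29 and -1.2 points. Between the 2 H3K27me3 libraries the medians were 0.0394 points over 2072 H3K4me1 peaks and 0.0409 points over 1735 H3K27me3 peaks.

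Nearly all of these peaks were places where the peak lists overlap. Of the 2469 H3K4me1 peaks, 2434 shared 1 bp or more with an H3K27me3 peak, and the other 35 had a median difference of -0.043 points. Of the 2004 H3K27me3 peaks, 31 had no H3K4me1 peak, with a median difference of -0.212 points.

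Peaks differing by 20 points or more were few in both directions. Among H3K4me1 peaks H3K27me3 was higher in 25, 1.01% of those compared, and H3K4me1 in 9, 0.365%. Among H3K27me3 peaks the counts were 16 (0.798%) and 12 (0.599%). The same-mark pair gave 1 peak (0.0483%) in each direction among H3K4me1 peaks, and 0 (0%) and 1 (0.0576%) among H3K27me3 peaks, where the 100000-cell library was lower and higher, respectively. That library had more calls per peak, a median of 465 and 489 over the 2 lists, against 136 and 154 in H3K4me1 run 2. Fewer calls make 20 points easier to reach, and the part of depth in these counts was not tested. Between marks the counts among H3K27me3 peaks had no stable direction. Among H3K4me1 peaks the lead of H3K27me3 narrowed to 0.709% against 0.607% with run 1 and was lost with 10 calls per CpG. With 10 calls per CpG each direction held 0.563% of H3K4me1 peaks, and among H3K27me3 peaks H3K27me3 was higher in 0.499% and H3K4me1 in 0.666%. With H3K4me1 run 1 the shares of H3K27me3 peaks were 0.449% and 0.673%.

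A two-sided Fisher's exact test was run for each peak on its summed calls, with Benjamini-Hochberg adjustment over the list at 0.05. It called more peaks with H3K4me1 higher. Among H3K4me1 peaks it called 306 in that direction (12.4%) and 46 with H3K27me3 higher (1.86%). Among H3K27me3 peaks it called 369 (18.4%) and 50 (2.5%). In the same-mark pair it called 0 and 0 among H3K4me1 peaks (0%), and 3 (0.173%) lower and 0 (0%) higher in the 100000-cell library among H3K27me3 peaks. The same-mark libraries also share the places where their calls fall, so this pair does not show how far uneven depth within a peak moves the test between marks. The test compares the calls of these 2 libraries and not the marks. It sums over CpGs of unequal depth, and in 15 and 39 called peaks the mean CpG difference had the opposite sign.

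**Figure D4:**
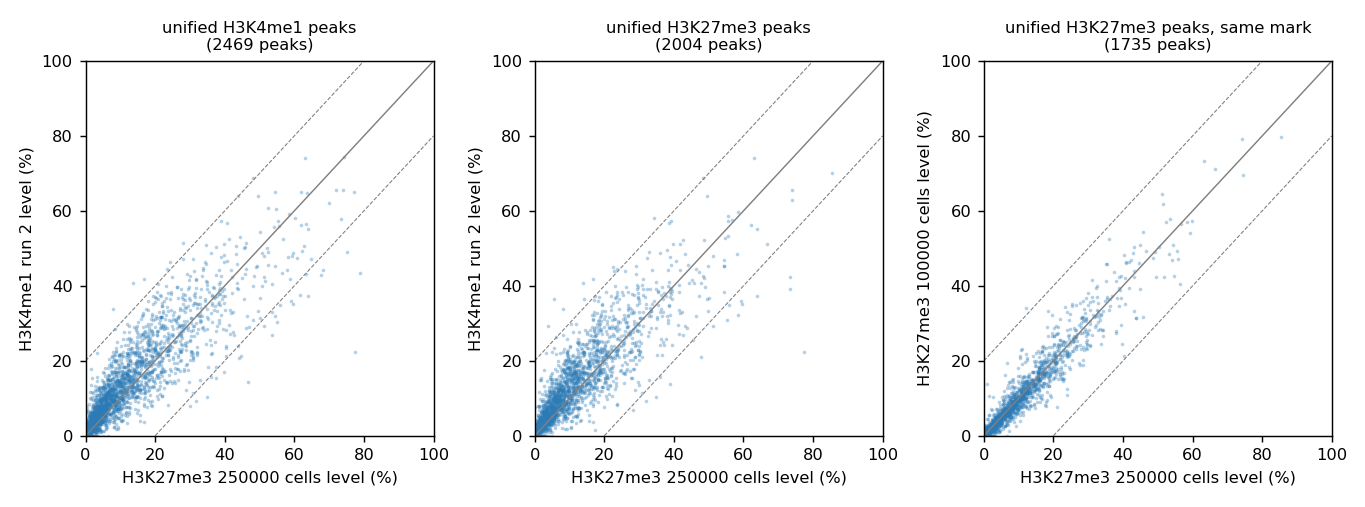
Methylation level in percent of each unified peak at its shared CpGs, H3K27me3 from 250000 cells on the x axis of every panel. The y axis is H3K4me1 run 2 over H3K4me1 peaks (left, 2469 peaks) and over H3K27me3 peaks (middle, 2004), and H3K27me3 from 100000 cells over H3K27me3 peaks (right, 1735); the solid line marks equal levels and dashed lines mark differences of 20 points. Points spread further around the line between marks than within the mark, where 1 peak passes 20 points. H3K4me1 run 2 had fewer calls per peak than the 100000-cell library, and the part of depth in this spread was not tested.

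The width of the H3K27me3 peak went with the size of the shift. Among the 112 tested peaks under 2000 bp the median difference was -0.064 points, and H3K27me3 was lower in 50.0%. Among 1053 peaks from 5000 to 19999 bp it was -1.43 points and 65.8% were lower. In the 454 peaks of 20000 bp or more the median levels were 6.14% and 9.71%, the median difference was -2.55 points, and H3K27me3 was lower in 82.4%. With CpGs weighted equally that median difference was -1.79 points. H3K4me1 peaks had no such order, with -1.07 points under 2000 bp, -1.86 from 2000 to 4999 bp and -1.6 from 5000 to 19999 bp.

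The shared CpGs of a broad peak did not stand for the whole peak. In the 2000 H3K27me3 peaks that also had 20 calls in each library outside the shared set, the medians at those other CpGs were 24.7% in H3K27me3 and 21.3% in H3K4me1. The median difference there was 3.91 points and H3K27me3 was lower in 31.9%, so the direction was opposite to that at shared CpGs. Those CpGs differ between the libraries, since each library reads them in different places. Over all CpGs of the peak the median difference was 3.62 points. In H3K4me1 peaks the CpGs outside the shared set gave 10.7% and 14.4%, with a median difference of -1.52 points over 2399 peaks, close to that of shared CpGs.

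The 20 peaks with the largest differences, 10 in each direction, were described one by one. All 20 came from the H3K27me3 list, all overlapped an H3K4me1 peak and none an H3K9me3 peak. Of overlapping peaks the one with more calls was kept, so the list of origin follows partly from that rule. Among all tested H3K27me3 peaks 1973 of 2004 overlapped an H3K4me1 peak, and 0.116% of all shared CpGs lay in an H3K9me3 peak. These traits are thus not particular to the 20. As they were chosen for the difference, no test is given. Values from the other libraries are set beside them.

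The widest difference was at a 2153 bp peak inside Rest (chr5:77281107-77283259), which encodes a repressor of neuronal genes in non-neuronal cells. Over 16 shared CpGs, H3K27me3 from 250000 cells was methylated in 77.5% of 111 calls (95% Wilson interval 68.9 to 84.3), and H3K4me1 run 2 in 22.3% of 139 (16.2 to 29.9). The 100000-cell and 20000-cell H3K27me3 libraries stood at 76.4% of 89 calls and 77.3% of 22. H3K4me1 run 1 stood at 25% of 72, and H3K9me3 run 2 at 94.7% of 19. All 3 H3K27me3 libraries were thus high and both H3K4me1 runs low. H3K27me3 was higher at 15 of the 16 CpGs. The peak lies in the gene body, which spans 77265494 to 77286432.

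Ccdc141, which encodes a centrosomal protein needed in migrating neurons, had the most calls among the named peaks with H3K27me3 higher (chr2:77169625-77173017). Over 34 shared CpGs, 916 bp from its start site at their centre, the levels were 34.8% of 296 H3K27me3 calls and 10.3% of 715 H3K4me1 calls. H3K27me3 was higher at 27 CpGs and lower at 6. The smaller H3K27me3 libraries had 28.9% of 204 calls and 54.7% of 53, and H3K4me1 run 1 had 11.1% of 352. The lowest of these 3 H3K27me3 values lay above both H3K4me1 runs.

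At Dlk1, an imprinted gene for a transmembrane protein of the Notch ligand family (chr12:109444508-109462260), the levels over 12 CpGs were 58.4% of 269 calls and 32.3% of 62. The 100000-cell library gave 57.0% of 179 and H3K4me1 run 1 gave 28.1% of 32. Hmga2, a chromatin protein of embryonic cells (chr10:120388301-120393201), had 39.0% of 118 against 13.8% of 152, with 35.3% of 68 in the 100000-cell library. Tmc7, of the transmembrane channel-like family (chr7:118572855-118587051), had 55.4% of 435 against 30.8% of 354, and 47.4% of 268 in the 100000-cell library. The difference depended on the CpGs used at 2 of these genes. Over all CpGs of the peak, Dlk1 went from 26.1 points to 2.54 and Tmc7 from 24.6 to 3.98. Over the CpGs with enough run 1 calls to enter, the difference to run 1 was 3.63 points at Dlk1 and 13.0 at Tmc7. These CpGs overlapped the ones described here only in part. At the described CpGs run 1 stayed below H3K27me3 at both genes, with 28.1% at Dlk1 and 27.8% of 176 calls at Tmc7.

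The other 5 peaks with H3K27me3 higher follow with the values that moved most. Col5a3, a collagen V chain, had 64.0% of 50 calls against 37.3% of 102, but the 100000-cell library had only 28.6% of 21, below H3K4me1. Trak1, an adaptor for mitochondrial transport, had 47.9% of 217 against 21.1% of 190. When 10 calls per CpG were required Trak1 had -5.77 points, the value at the CpG at 121298436 alone, with 12 and 13 calls. A peak whose shared CpGs overlie Mb and Apol6 had 73.4% of 64 against 39.2% of 97, a difference of 34.3 points over calls and 10.7 as a mean over CpGs. A peak at the lncRNA Gm36038 had 73.3% of 75 against 42.4% of 59, or 9.43 points as a mean over CpGs. Its value of 0 with 10 calls per CpG came from the CpG at 172577556 alone, unmethylated in 10 and 13 calls. The last lay 55669 bp from its nearest gene, Opa1, with 59.6% of 52 against 35.2% of 54. By the mean over CpGs, 6 of the 10 kept 20 points or more.

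Of the 10 peaks with H3K4me1 higher, 3 kept 20 points or more by the mean over CpGs. The first was Prdm16, a transcription factor of brown fat and neural stem cells (chr4:154444340-154448015), with 13.8% of 80 H3K27me3 calls (7.85 to 23.0) and 40.7% of 54 H3K4me1 calls (28.7 to 54.0) over 8 CpGs. H3K4me1 was higher at 7 of them. The 100000-cell library, at 33.3% of 30, lay between. At the 8 shared CpGs of Prdm16 run 1 had 52.0% of 25 calls, further from H3K27me3 than run 2. With 5 or more run 1 calls required, the Prdm16 difference was -6.67 points. That is the value at the CpG at 154446149 alone, with 15 H3K27me3 calls and 5 run 1 calls. The second was Tsks, a testis protein (chr7:44949262-44952264), with 8.0% of 75 (3.72 to 16.4) and 33.8% of 68 (23.7 to 45.7), where H3K4me1 was higher at 9 of 10 CpGs. The 100000-cell library had 17.4% of 46 and H3K4me1 run 1 had 41.2% of 34, and over all CpGs of the peak the difference at Tsks was 2.39 points. Over the CpGs of the peak with enough 100000-cell calls to enter, the Tsks difference with that library was -1.08. The third, over Prn and Prnd of the prion gene family (chr2:131952446-131954493), had 23.5% of 68 and 44.6% of 74, with 40% of 35 in the 100000-cell library. So for Prdm16 and Prnd the second H3K27me3 library lay nearer to H3K4me1 than to the first.

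Celsr2, a cadherin of planar cell polarity (chr3:108390969-108424495), shows how sums over calls widen a gap. Over calls the levels were 5.42% of 1199 and 36.4% of 99, a difference of -30.9 points. As a mean over its 19 shared CpGs it was -4.39 points, with H3K27me3 higher at 7 and H3K4me1 at 8. A cluster of 8 of these CpGs, 23199 to 23250 bp from the first, had 103 to 142 H3K27me3 calls each and 5 H3K4me1 calls each, and was nearly unmethylated in both. At the 19 shared CpGs run 1 had 29.8% of 47 calls. The difference over calls was 0.353 points at the CpGs with 5 or more run 1 calls, which lay in that cluster. The same pattern held at Cdh22, another cadherin, with -25.4 points over calls and -4.81 as a mean over CpGs. Run 1 there had 38.7% of 62 calls, against 3.72% of 1103 in H3K27me3. At CpGs with 5 or more run 1 calls the Cdh22 difference was -1.07 points. The peak next to Il13, a cytokine gene, had -23.8 and -0.174 points. Run 1 had 65.6% of 32 calls at its shared CpGs, against 34.2% of 79 in H3K27me3. At CpGs with 5 or more run 1 calls the Il13 difference was 5.56 points over calls. The remaining named peaks with H3K4me1 higher lay at Pdyn, the opioid precursor gene (-25.2 and -19.5), Lingo3 (-22.4 and -14.5), Smarcd3, a chromatin remodelling subunit (-22.3 and -6.23), and Evpl, encoding envoplakin (-21.1 and -4.56). At the shared CpGs of Pdyn the 100000-cell library had 27.8% of 18 calls, against 41.9% of 74 in H3K4me1 run 2. With that library the Pdyn difference was -2.14 points, but at other CpGs of the peak, which had 5 or more calls in it. Over all CpGs of the peak, Lingo3 turned to 0.314 points and Smarcd3 to 5.36. At CpGs with 5 or more run 1 calls Lingo3 had 0.655 points. At its shared CpGs run 1 had 32.1% of 53 calls, against 22.6% of 572 in H3K27me3.

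**Figure D5:**
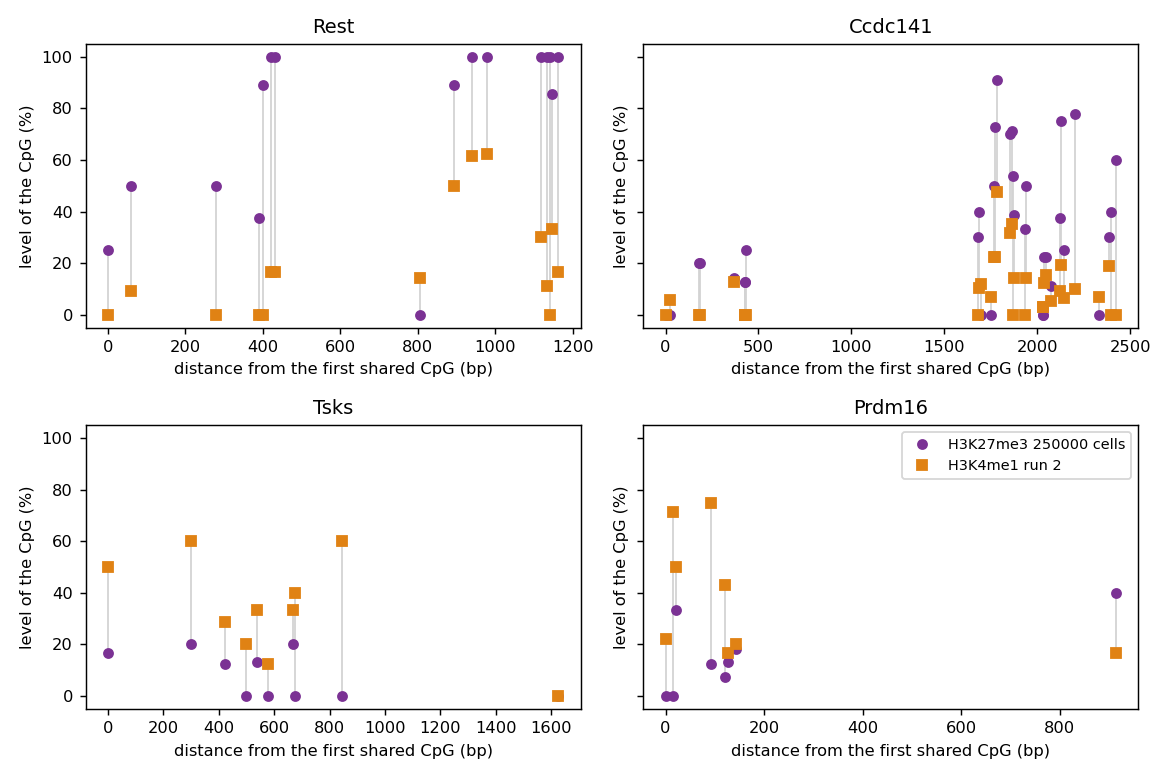
Level in percent (y axis) of each shared CpG by its distance in bp from the first shared CpG of the peak (x axis), H3K27me3 from 250000 cells in purple and H3K4me1 run 2 in orange, with grey lines joining the 2 values of a CpG. At Rest H3K27me3 is higher at 15 of 16 CpGs and at Ccdc141 at 27 of 34, while H3K4me1 is higher at 9 of 10 CpGs of Tsks and 7 of 8 of Prdm16.

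Promoters were taken as 1000 bp to each side of the RefSeq start sites of a gene, and 1752 genes had 20 or more calls in each library at shared CpGs there. Over these the median levels were 3.33% in H3K27me3 and 4.42% in H3K4me1, and the median difference was -0.378 points. H3K27me3 was higher in 630 promoters and H3K4me1 in 953. H3K27me3 was higher by 20 points in 11, 0.628% of promoters compared, and H3K4me1 in 13, 0.742%. Of 163 genes in the 6 lists, 113 had a start site in the promoter table.

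Polycomb target transcription factor genes were the best covered list, with 26 of 56 genes and 790 shared CpGs. None differed by 20 points. H3K27me3 was higher in 7 and H3K4me1 in 18, the median difference was -0.579 points, and the median levels were 0.927% and 1.68%. Over all 1752 promoters the lean was the same way, 630 against 953. Gata2, a regulator of blood stem cells, had the most shared CpGs, 98, with 2.54% of 9555 calls (2.25 to 2.88) and 4.14% of 869 (3.01 to 5.68). The 100000-cell library gave 2.79%. Pax6, the eye and forebrain regulator, stood out from this low level over 82 CpGs, with 5.33% of 4221 calls (4.69 to 6.05) against 12.4% of 619 (10.1 to 15.3). The 100000-cell library gave 5.63% and H3K4me1 run 1 gave 13.0%, so each mark kept to its own level.

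Pax2, a kidney and midbrain factor, was nearly unmethylated in both, with 0.838% of 6202 calls and 0.226% of 443, and its small difference turned negative with run 1. Otx2, a forebrain factor, had 1.57% of 830 and 3.61% of 388. Gsc, the organizer gene goosecoid, had 3.27% of 245 and 14.3% of 28, a wide difference on few calls.

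Signalling genes marked by Polycomb were covered at 10 of 28 genes, none of them 20 points apart. H3K27me3 was higher in 3 and H3K4me1 in 7, with a median difference of -2.29 points and median levels of 3.92% and 6.79%, again the direction of all promoters. The Wnt ligand gene Wnt10b, over 51 CpGs, had 9.87% of 6609 calls (9.17 to 10.6) and 17.7% of 480 (14.6 to 21.4). Its 100000-cell library had 11.2% and H3K4me1 run 1 had 16.3%. Wnt1, in the same chromosome region, had 5.95% of 454 and 17.4% of 23, and its difference went from -11.4 to -3.26 points with 2000 bp to each side. Wnt6 had 8.23% of 1810 and 6.99% of 272, where the intervals overlapped. At its CpGs with 5 or more run 1 calls the difference was -0.0987 points. Dkk1, a secreted Wnt inhibitor, had 3.77% of 1831 and 7.49% of 187. Fzd10, a Wnt receptor, had 3.35% of 209 and 6.6% of 106. Fgf5, a growth factor of primed cells, had 5.84% of 634 and 15.2% of 66, with 4.75% in the 100000-cell library and 7.69% of 26 in run 1.

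The other lists were hardly covered. Of 26 pluripotency genes 2 were: Esrrb, an orphan nuclear receptor of naive cells, with 2.99% of 603 calls and 17.4% of 46, and Dnmt3l, the cofactor of de novo methylation, with 52.4% of 21 and 32.1% of 28. At Dnmt3l the intervals overlapped, 32.4 to 71.7 and 17.9 to 50.7, and with 2000 bp to each side the difference went from 20.2 to 7.04 points. Of 18 imprinted genes 2 were covered, Gnas with 5.78% of 1991 and 3.53% of 255 (-0.795 points with 2000 bp to each side), and Rasgrf1 with 3.1% of 516 and 6.0% of 50. Of 18 housekeeping genes only B2m was covered, with 2.21% of 271 and 0 of 38. A count of 0 there allows up to 7.89% as 3 counts of the total, and the Wilson interval reaches 9.18%. No germline gene of 18 was covered.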

How the data were processed

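Methylation was measured by bisulfite CUT&Tag. Per the submitters' processing notes, cutadapt 1.12, Bismark 0.23.0, Bowtie2 2.3.0, HOMER 4.10.3 and bedtools 2.29.2 were used with build mm10; their roles and the treatment of duplicate reads are not given in the sources used here. The authors deposited whole counts of methylated and of all calls per CpG, without normalization, and peak lists as positions, used here only to assign CpGs to classes. All 407620 CG positions of the RefSeq promoter sequences (GRCm38.p6) were found in the table. CpGs with at least 5 calls in each library entered. Levels are methylated calls over all calls, with 95% Wilson intervals that cover counting error only, since amplified copies are not independent molecules. Fisher's exact test (scipy 1.17.1) was tried on simulated calls at the depth of the 2469 H3K4me1 peaks, with 200 peaks changed by 20 points. It recovered 87.5% of these, and 1.69% of its calls were false. The simulated calls were independent, with the same level at every CpG of a peak. They therefore do not show how the test behaves with amplified copies or uneven depth within a peak. Members and lists were chosen with earlier results of these data known. The peaks named are the 10 with the largest difference in each direction, overlapping peaks counted once; the promoters named are, per list, the 4 with the most shared CpGs and the 2 with the largest difference. Alternatives covered the call minimum, library, run, peak lists, weighting, thresholds, windows and CpGs left out.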

Additional observations from a re-analysis of the deposited data

How the results depend on the processing

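No paired analysis was possible because the compared pair is 1 library of each mark; the other H3K27me3 libraries differ in cell number, the H3K4me1 runs in read length, and the labels pair none of them across marks. Of 131 alternative values of the main results, 77 stayed close to the reported value, 52 moved and 2 reversed. The alternatives that left out CpGs with 5 or more H3K9me3 calls and those that averaged over the CpGs of a peak were chosen after seeing the data.

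Class differences in percentage points are given in the order neither, H3K4me1 only, H3K27me3 only and both. Over calls they were 3.76, 1.73, -6.03 and -5.58, and as means of CpG levels 0.732, 0.148, -0.813 and -1.68. The alternatives that follow are over calls. With 10 calls per CpG the differences were 5.35, 4.29, -6.72 and -4.37. The 100000-cell library gave 4.81 (neither), -4.87 (H3K27me3 only) and -4.78 (both), and run 1 gave -5.61 and -5.44 for the last 2. The libraries' own peak lists gave 2.97 (neither), -1.16 (H3K4me1 only, reversed) and -5.49 (H3K27me3 only). The class in neither peak had 0.107 without CpGs covered by all 3 marks and 3.16 without the 0.1% of CpGs with most calls.

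Shares of CpGs 50 points apart, H3K27me3 higher then H3K4me1 higher, were 0.104% and 0.246% with 10 calls, and 0.0405% and 0.0315% at 80 points; H3K4me1 was higher in 1.01% with run 1. Median peak differences for H3K4me1 and H3K27me3 peaks were -1.72 and -2.01 with 10 shared CpGs and 100 calls, -1.74 and -1.94 with run 1, and -1.29 and -1.2 as means over CpGs. Over all CpGs of the peak the H3K27me3 median reversed to 3.62.

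Shares of peaks 20 points apart moved as follows. With 10 CpGs and 100 calls, H3K4me1 was higher in 0.0671% of H3K4me1 peaks and 0.152% of H3K27me3 peaks. With the 100000-cell library H3K27me3 was higher in 0.512% of H3K4me1 peaks, and H3K4me1 in 0.226% of H3K27me3 peaks. With 10 calls per CpG each direction held 0.563% of H3K4me1 peaks, and H3K27me3 peaks turned to 0.499% with H3K27me3 higher and 0.666% with H3K4me1 higher; run 1 gave 0.449% and 0.673% there. Over all CpGs of the peak H3K27me3 was higher in 8.51% of H3K27me3 peaks and H3K4me1 in 0.708% of H3K4me1 peaks. At 40 points H3K27me3 was higher in 0.0405% of H3K4me1 and 0.0499% of H3K27me3 peaks, and H3K4me1 in 0.

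Fisher's exact test called, for H3K27me3 higher and H3K4me1 higher, 16 and 106 H3K4me1 peaks and 19 and 151 H3K27me3 peaks with run 1. With 10 calls per CpG it called 9 and 93, and 8 and 103, and with a 20-point difference also required 20 and 6, and 13 and 9. The 100000-cell library gave 22 H3K4me1 peaks with H3K27me3 higher.

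Of 166 values of named peaks and promoters, 118 stayed close, 39 moved and 9 reversed. An alternative run or library brought its own set of CpGs with 5 or more calls. Its values therefore compare libraries at only some of the CpGs described above, at other CpGs of the same place, or at both. Run 1 gave 0.353 at Celsr2, 5.56 at Il13, 0.655 at Lingo3 and -0.371 at the Pax2 promoter. All CpGs of the peak gave 2.39 at Tsks, 0.314 at Lingo3 and 5.36 at Smarcd3. Trak1 gave -5.77 with 10 calls per CpG, which left a single CpG, and Col5a3 gave -25.5 with the 100000-cell library. The cause of these changes was not tested, apart from the smaller sets of CpGs. H3K4me1 depth limits single CpGs, since at 5 calls a level moves in steps of 20 points.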

Other observations

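On chromosome X, which is outside the set above, 924 CpGs had 5 or more calls in both libraries. Their mean CpG levels were 7.94% in H3K27me3 and 10% in H3K4me1, a difference of -2.09 points. The 791 of them inside peaks of both marks stood at 7.1% and 9.55%. A difference of 50 points or more was found at 2 CpGs with H3K27me3 higher and 5 with H3K4me1 higher.

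H3K9me3 run 2 could be set beside both libraries at 840 shared CpGs with 5 or more calls in it. The mean CpG levels there were 17.2% in H3K9me3, 13.3% in H3K27me3 and 11.1% in H3K4me1. The CpGs in neither peak formed 413 runs, and the 10 largest held 1374 of the 2994. Besides the stretch with ribosomal RNA sequence, these included 232 CpGs at Gadd45b, a stress response gene, at 10.9% in H3K27me3 and 14.6% in H3K4me1, and 106 at Pdzd7 and Sfxn3 at 29.6% and 25.9%. At Kazald1, 50 CpGs stood at 12.5% and 21%. These genes were chosen after their values were seen.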
